A study of Mus musculus with 6 samples.

Results

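Here 8 genes that are widely reported as direct transcriptional targets of YAP and the TEAD factors, outside the CCN family, were followed in adipocytes with and without *Lats1* and *Lats2* deletion: *Ankrd1*, *Axl*, *Crim1*, *Dlc1*, *Arhgef17*, *Nt5e*, *Fjx1* and *Asap1*. They were picked by gene symbol, and all 8 were found among the 37384 symbols of the count table. RNA was sequenced from floated adipocytes of inguinal subcutaneous white adipose tissue (scWAT) of male mice at postnatal day 7 (P7), with 3 libraries for L1L2-FF and 3 for L1L2-AKO, and the tissue of 4 mice was pooled for every library. Both genotypes carried the floxed alleles Lats1f/f and Lats2f/f, and the L1L2-AKO mice (Lats1f/fLats2f/fAdipoqCre) carried in addition Cre recombinase driven by the *Adipoq* (adiponectin) promoter, so that recombination was directed to adipocytes and not to the other cells of the tissue. The fraction was obtained by collagenase digestion and flotation, and any other cell that floated with the adipocytes also gave RNA to a library. In such bulk samples, a smaller number of cells of a type and less RNA per cell cannot be told apart.

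YAP and TAZ (*Wwtr1*) are coactivators without a DNA-binding domain, which reach DNA mainly through the TEAD transcription factors. The kinases LATS1 and LATS2, the last step of the Hippo kinase cascade, phosphorylate them and thereby keep them out of the nucleus, and loss of LATS activity lets them accumulate there. In adipose tissue, YAP/TAZ activity is known to oppose adipocyte differentiation. The targets studied here act in several places in the cell: AXL and CRIM1 are membrane receptors or receptor-like proteins, NT5E is an enzyme on the outer surface, DLC1, ARHGEF17 and ASAP1 regulate small GTPases, FJX1 is a Golgi and secreted protein, and ANKRD1 is an ankyrin repeat protein of the nucleus and the sarcomere.

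TEAD factors recognize GGAATG, and RefSeq promoter windows of GRCm38.p6 (250 bases before and 50 bases after the transcription start) were at hand for 4 of the 8 genes, *Axl*, *Crim1*, *Ankrd1* and *Nt5e*. They are printed here because 3 of them hold this hexamer and the fourth, that of *Nt5e*, belongs to the one member that fell. Each window is written 5′ to 3′ on the strand of its gene, in lower case, with GGAATG in capitals.
*Ankrd1*, chr19:36119795-36120094, minus strand: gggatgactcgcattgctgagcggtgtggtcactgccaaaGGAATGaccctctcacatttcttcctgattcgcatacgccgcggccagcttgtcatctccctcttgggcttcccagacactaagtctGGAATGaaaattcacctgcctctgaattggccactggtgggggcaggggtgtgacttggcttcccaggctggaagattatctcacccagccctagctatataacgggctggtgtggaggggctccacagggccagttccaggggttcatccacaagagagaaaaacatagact
*Axl*, chr7:25788684-25788983, minus strand: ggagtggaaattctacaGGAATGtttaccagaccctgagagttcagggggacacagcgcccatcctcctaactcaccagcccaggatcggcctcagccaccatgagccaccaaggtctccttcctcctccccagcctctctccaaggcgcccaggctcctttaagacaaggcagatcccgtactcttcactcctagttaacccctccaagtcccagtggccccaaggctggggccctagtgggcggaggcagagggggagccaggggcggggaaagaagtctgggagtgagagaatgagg
*Crim1*, chr17:78199998-78200297, plus strand: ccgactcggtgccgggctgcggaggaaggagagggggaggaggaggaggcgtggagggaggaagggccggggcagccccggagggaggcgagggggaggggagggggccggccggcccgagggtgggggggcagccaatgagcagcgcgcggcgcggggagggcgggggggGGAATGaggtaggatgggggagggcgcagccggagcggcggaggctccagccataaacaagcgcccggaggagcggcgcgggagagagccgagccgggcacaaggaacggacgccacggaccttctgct
*Nt5e*, chr9:88327359-88327658, plus strand: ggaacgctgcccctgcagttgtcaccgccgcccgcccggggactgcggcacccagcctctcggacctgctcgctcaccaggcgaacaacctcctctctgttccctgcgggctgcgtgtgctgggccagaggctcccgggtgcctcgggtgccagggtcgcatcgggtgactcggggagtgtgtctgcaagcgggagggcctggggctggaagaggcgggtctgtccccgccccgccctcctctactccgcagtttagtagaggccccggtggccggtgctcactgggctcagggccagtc
The *Ankrd1* window held 2 matches, whose first bases lay 210 and 123 bases before the start. *Axl* had 1 match at 233 bases and *Crim1* 1 match at 79 bases before the start. The *Nt5e* window held no match on either strand, which says only that these letters are not in this window. Distances count from the RefSeq start. The *Ankrd1* and *Nt5e* windows lie within the spans that GENCODE M21 gives these genes, so the starts of the annotations differ there. With both strands searched, 14.7% of all 32851 promoter windows held GGAATG. The AP-1 motif TGANTCA, a frequent neighbor of TEAD sites, was found in 0 of the 4 windows and in 7.81% of all windows, so that no AP-1 match overlapped a GGAATG match. A match is a description of the sequence. *Dlc1*, *Arhgef17*, *Fjx1* and *Asap1* had no window in the table.

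Total counts ranged from 30548473 to 32107917 per library, a 1.05-fold span. The genotype labels were checked on the targeted genes, of which *Lats1* fell from 82.9 ± 9.90 to 40.2 ± 1.16 CPM (counts scaled to library size after TMM normalization, mean ± SD, n = 3 libraries each), whereas *Lats2* was higher, with 76.4 ± 8.68 against 119 ± 20.6 CPM, a call that held in 2 of the 6 fits with a library left out. A count per gene covers floxed and other exons alike, so the level of *Lats2* cannot tell whether its floxed exons were lost and does not decide on the labels. Every direction given here is that of libraries labelled L1L2-AKO against the L1L2-FF libraries. All 10 adipocyte markers were present in both genotypes, with summed levels of 23588 to 31480 CPM in L1L2-FF and 25613 to 33967 CPM in libraries labelled L1L2-AKO. Most of each sum came from *Lpl* (11746 ± 2947 against 16852 ± 3059 CPM) and *Fabp4*, whose log2 fold changes of 0.52 and -0.30 did not pass. Of the 10 markers 3 were lower (*Adipoq*, *Pparg* and *Slc2a4*), 7 did not pass and 0 were higher, and DESeq2 called 6 lower and 0 higher, as did an unadjusted p under 0.05, and limma-voom 3 and 0. The median log2 fold change of the list was -0.58, with 8 of 10 fitted below 0 and 6 lower without overlap.

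Of the 8 targets, 4 rose in libraries labelled L1L2-AKO (*Ankrd1*, *Crim1*, *Asap1* and *Fjx1*), 1 fell (*Nt5e*) and 3 did not pass the test (*Axl*, *Dlc1* and *Arhgef17*), judged by an adjusted p below 0.05 (edgeR, quasi-likelihood, Benjamini-Hochberg over the 15674 genes tested). Over all tested genes, 9.28% were called higher and 7.18% lower. All 8 targets passed the filter on low counts, *Ankrd1* only through the libraries in which it was high. The median log2 fold change of the 8 genes was 1.01, against -0.0195 for all tested genes. *Ankrd1* stays the highest of the 8 at the lower end of its counting interval, so its fitted size does not enter the median. Its inclusion does: with *Ankrd1* left out, the middle gene is *Arhgef17*, with a log2 fold change of 0.596. The L1L2-FF and L1L2-AKO libraries did not overlap in 6 of the 8 genes, 5 of them higher and 1 lower, where 18.0% of all tested genes were higher and 18.4% lower without overlap. With each library left out in turn, each of the 5 called genes stayed past the threshold in all 6 fits, with adjusted p-values of at most 0.043. The other 3 genes stayed outside it. *Ankrd1*, counted among the 4 risers and the 5 genes higher without overlap, entered these fits only through the libraries labelled L1L2-AKO. Its calls are therefore no separate support.

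**Figure D1:**
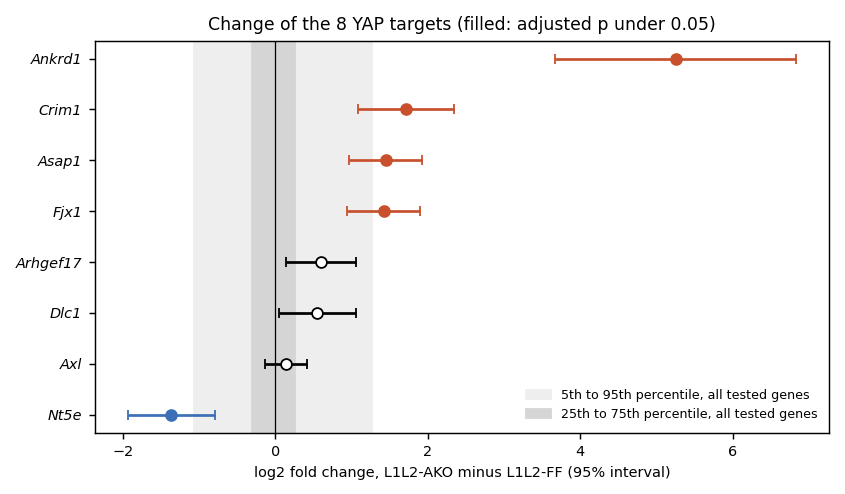
Log2 fold change of the 8 YAP targets between libraries labelled L1L2-AKO and the L1L2-FF libraries (horizontal axis), with unadjusted 95% intervals and filled points for an adjusted p under 0.05. *Ankrd1*, *Crim1*, *Asap1* and *Fjx1* lie to the right of the light band, which holds the 5th to 95th percentile of all tested genes (-1.06 to 1.28), and *Nt5e* lies to its left.

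*Ankrd1* (chromosome 19, 36111961 to 36120099 of mm10, minus strand, GENCODE M21), which encodes the cardiac ankyrin repeat protein and is among the genes that respond most directly to YAP in many cells, went from nearly no reads to a low level. In order of replicate, its counts were 1, 0 and 1 for L1L2-FF against 24, 42 and 23 for L1L2-AKO. Every library labelled L1L2-AKO was above every L1L2-FF library, and replicate 2 was the highest. Summed over the libraries of a genotype, 89 counts stood against 2, a ratio of 45.2 after scaling (95% exact Clopper-Pearson interval 12.1 to 379, for counting error only). The adjusted p was 0.00229 in edgeR's test, and the fitted log2 fold change of 5.25 depends on the prior count. As *Ankrd1* passed the filter on low counts only through the libraries labelled L1L2-AKO, this p-value is no separate support for the rise. *Ankrd1* reached 0.953 ± 0.331 CPM (SD, n = 3) in libraries labelled L1L2-AKO. By mean level per length over all 6 libraries, which include the L1L2-FF libraries with nearly no reads, it stood at percentile 5.34 of the tested genes. This percentile does not rank its level in libraries labelled L1L2-AKO alone. Skeletal muscle is a tissue in which *Ankrd1* is known to be inducible. The 10 muscle markers summed to 44.3 to 44.9 CPM in L1L2-FF and 22.9 to 27.8 CPM in libraries labelled L1L2-AKO. Of the 5 muscle markers tested, edgeR called 0, with 3 lower at an unadjusted p under 0.05, DESeq2 called 3 lower and limma-voom 1 lower. *Des* and *Acta1* were the most abundant, with log2 fold changes of -0.62 and -1.67. *Myh4*, *Myh3*, *Tnnc2*, *Myog* and *Myod1* were too low to be tested. The part of muscle RNA in the level of *Ankrd1* was not tested.

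**Figure D2:**
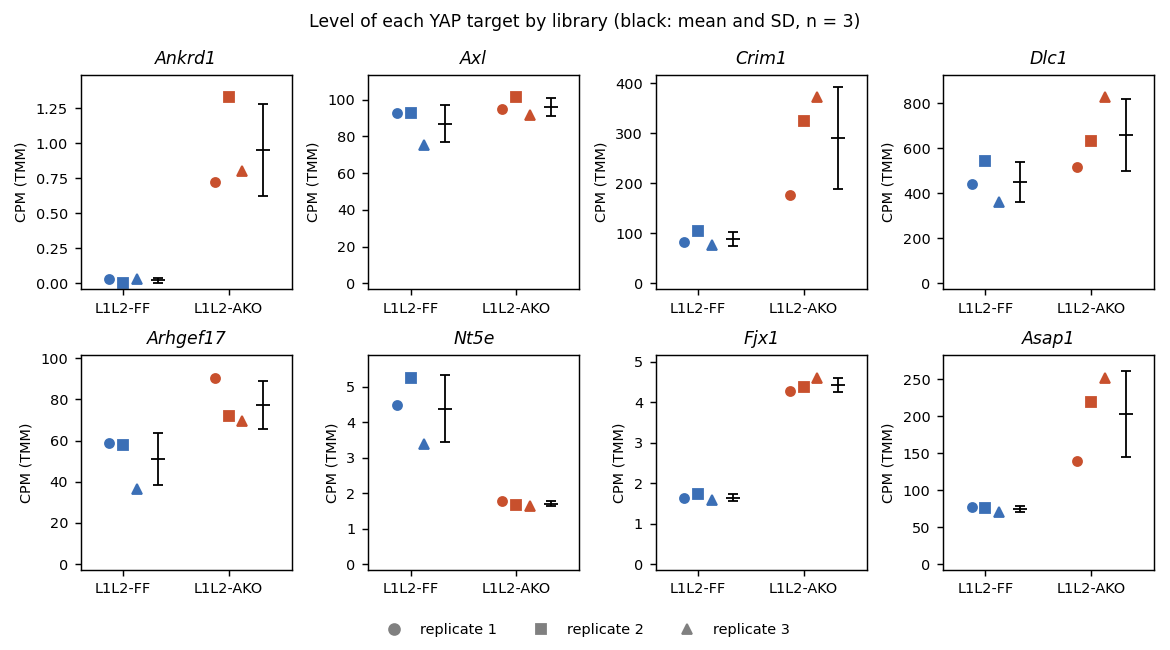
CPM of each target in each of the 6 libraries (vertical axis, linear from 0, a scale per gene), with replicates 1, 2 and 3 as circle, square and triangle and the mean and SD in black. The points of the genotypes are apart for *Ankrd1*, *Crim1*, *Fjx1*, *Asap1*, *Nt5e* and *Arhgef17* and overlap for *Axl* and *Dlc1*.

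The membrane proteins took 3 different courses. *Crim1* (chromosome 17, 78200248 to 78376592, plus strand) encodes a transmembrane protein with cysteine-rich repeats that binds bone morphogenetic proteins (BMPs). Its level was 82.9, 105 and 77.6 CPM in L1L2-FF and 176, 324 and 372 CPM in libraries labelled L1L2-AKO. The lowest of the latter, replicate 1, was still above all L1L2-FF libraries. The change was 3.28-fold (95% interval 2.13 to 5.06, log2 fold change 1.72, standard error 0.272, adjusted p = 0.00500 from edgeR's test), the largest fitted value in the set after *Ankrd1*. A stretch of 2.05% of its exon bases overlaps *Fez2* on the opposite strand, and the strand setting of the counting is not given in the sources used here.

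*Axl* (chromosome 7, 25757273 to 25788705, minus strand), a receptor tyrosine kinase of the TAM family that is activated by GAS6, stayed near its starting level. It measured 92.8, 92.6 and 75.5 CPM in L1L2-FF and 94.9, 102 and 91.8 CPM in libraries labelled L1L2-AKO. L1L2-AKO replicate 3 lay below L1L2-FF replicates 1 and 2, so the groups overlapped. The ratio of 1.105 had a 95% interval of 0.912 to 1.34 (adjusted p = 0.477 in edgeR's test). *Axl* is known to be expressed by macrophages as well, and all 11 macrophage markers rose in libraries labelled L1L2-AKO, from summed levels of 263 to 528 CPM to 1001 to 1119 CPM, with *Mrc1* and *Lyz2* as the most abundant (log2 fold changes 1.84 and 1.08). The call of *Lyz2* was lost without L1L2-FF replicate 1 or L1L2-AKO replicate 2 (adjusted p up to 0.0767). The part of this in the level of *Axl* was not tested.

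*Nt5e* (chromosome 9, 88327197 to 88372092, plus strand) encodes CD73, the surface enzyme that turns extracellular AMP into adenosine and that also marks stromal progenitors. It was the one target that fell. Its level was 4.50, 5.26 and 3.38 CPM in L1L2-FF, from 105 to 170 counts, and 1.78, 1.68 and 1.64 CPM in libraries labelled L1L2-AKO, from 47 to 59 counts. The L1L2-AKO values were close together, with a coefficient of variation of 4.20%, and all lay below the L1L2-FF values. At these counts, counting error alone is on average larger than that spread. L1L2-FF was 2.57-fold higher (log2 fold change -1.36, standard error 0.246, adjusted p = 0.00865 in edgeR's test). The 9 progenitor markers summed to 722, 794 and 553 CPM in L1L2-FF, the same order of replicates as in *Nt5e*, and to 524, 515 and 419 CPM in libraries labelled L1L2-AKO, all below the L1L2-FF sums. EdgeR called 2 of them lower (*Pi16* and *Cd55*) and 0 higher. An unadjusted p under 0.05 gave 6 lower, DESeq2 3 and limma-voom 2, each with 0 higher. The median log2 fold change of these markers was -0.39, and 5 were lower without overlap, where 18.4% of all tested genes were. Their most abundant genes, *Dcn* and *Cd34*, had log2 fold changes of -0.72 and -0.53 that did not pass. *Dcn* passed in 4 of the alternative settings, among them that without L1L2-FF replicate 3 (adjusted p = 0.0111). The 5 lymphocyte markers summed to 5.22 to 13.8 CPM in L1L2-FF and 7.78 to 14.8 CPM in libraries labelled L1L2-AKO. Of these edgeR called 0, as did DESeq2 and limma-voom, with 0 at an unadjusted p under 0.05, and *Cd79a* and *Ms4a1* were the most abundant (log2 fold changes 0.25 and 0.0795, which change sign when a library is left out). The part of progenitor RNA in the fall of *Nt5e* was not tested.

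Among the regulators of small GTPases, *Asap1* (chromosome 15, 64086857 to 64382919, minus strand) rose. It encodes a GTPase-activating protein for ARF proteins that sits at focal adhesions and podosomes. Its level was 77.0, 76.3 and 70.3 CPM in L1L2-FF and 139, 219 and 252 CPM in libraries labelled L1L2-AKO, with a spread of 4.96% of the mean in the former and 28.6% in the latter. The groups were well apart, and the change was 2.73-fold (95% interval 1.95 to 3.81, log2 fold change 1.45, standard error 0.209, adjusted p = 0.00342 in edgeR's test).

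*Dlc1* (chromosome 8, 36567751 to 36953143, minus strand), a GTPase-activating protein that turns off RHOA, had the highest counts of the set. It measured 443, 543 and 363 CPM in L1L2-FF and 516, 633 and 828 CPM in libraries labelled L1L2-AKO. L1L2-AKO replicate 1 lay below L1L2-FF replicate 2, and the ratio of 1.47 (95% interval 1.03 to 2.08, unadjusted p = 0.0360 in edgeR's test) did not pass after adjustment (adjusted p = 0.130). *Dlc1* is known to be expressed by endothelial cells. The 10 endothelial markers summed to 2553, 2406 and 1951 CPM in L1L2-FF and to 2583, 2027 and 1181 CPM in libraries labelled L1L2-AKO, with *Cdh5* and *Pecam1* on top (log2 fold changes -0.29 and -0.47). EdgeR called 0 of them, with 2 lower at an unadjusted p under 0.05, limma-voom called 0 and DESeq2 1 lower. Among libraries labelled L1L2-AKO, replicate 3 had the lowest sum of these markers and the highest level of *Dlc1*, whereas in L1L2-FF replicate 3 was lowest in both. The part of endothelial RNA in the level of *Dlc1* was not tested.

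*Arhgef17* (chromosome 7, 100869752 to 100932107, minus strand), an exchange factor that turns on RHOA, measured 58.9, 57.9 and 36.4 CPM in L1L2-FF and 90.5, 71.7 and 69.4 CPM in libraries labelled L1L2-AKO. All L1L2-AKO values were above all L1L2-FF values, yet the ratio of 1.51 (95% interval 1.097 to 2.08) gave an adjusted p of 0.0808 in edgeR's test. It passed with DESeq2 (adjusted p = 0.0385) and with the replicate number as a block (adjusted p = 0.0361). Of the exon bases of *Arhgef17*, 0.963% are shared with *Mir3102*.

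*Fjx1* (chromosome 2, 102449366 to 102452499, minus strand), the mammalian four-jointed homolog, is related to the fly Golgi kinase that modifies the FAT and Dachsous cadherins. It was a weakly expressed gene with the tightest replicates. Its level was 1.63, 1.73 and 1.58 CPM in L1L2-FF, from 49 to 56 counts, and 4.28, 4.38 and 4.61 CPM in libraries labelled L1L2-AKO, from 132 to 142 counts. The spread was 4.73% and 3.78% of the mean, and the groups were far apart. At counts this low, counting error alone is on average larger than these spreads, so they do not show that *Fjx1* is especially even. The change was 2.68-fold (95% interval 1.92 to 3.74, log2 fold change 1.42, standard error 0.208, adjusted p = 0.00354 in edgeR's test), close to that of *Asap1* although the level of *Fjx1* was far lower.

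To compare levels between genes, CPM was divided by the exon length of GENCODE M21 in kilobases. In L1L2-FF the order was *Dlc1* (30.6 ± 6.13 CPM per kilobase, SD, n = 3), *Axl* (17.3 ± 1.97), *Crim1* (14.8 ± 2.43), *Asap1* (9.96 ± 0.494), *Arhgef17* (4.73 ± 1.18), *Fjx1* (0.525 ± 0.0248), *Nt5e* (0.509 ± 0.11) and *Ankrd1* (0.00741 ± 0.00642). The ranges of *Axl* and *Crim1* overlapped, as did those of *Fjx1* and *Nt5e*. In libraries labelled L1L2-AKO, *Crim1* stood at the top (48.5 ± 17.1 CPM per kilobase), next to *Dlc1* (44.9 ± 10.7), whose range it overlapped. *Asap1* (27.2 ± 7.76) had moved past *Axl* (19.1 ± 0.989), with overlapping ranges. Below them came *Arhgef17* (7.15 ± 1.07), *Fjx1* (1.41 ± 0.0534) and *Ankrd1* (0.330 ± 0.115), and *Nt5e* was last (0.198 ± 0.00831). Exon length counts all annotated exons of a gene, so that a gene read from a short isoform appears lower per kilobase than it is.

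The targets also differed between replicates of a genotype, and in a pattern shared by several of them. L1L2-FF replicate 3 was the lowest L1L2-FF library for 7 of the 8 genes, the exception being *Ankrd1*. How often each library was the lowest over all tested genes was not counted, so this may not be particular to the targets. The same library had the lowest L1L2-FF sums of macrophage (263 CPM), endothelial (1951 CPM), mural (1113 CPM) and progenitor markers (553 CPM) and of immediate-early and stress genes (4230 CPM). Its sum of adipocyte markers (31480 CPM) was close to that of replicate 1 (31241 CPM), and replicate 2 was lower (23588 CPM). Without L1L2-FF replicate 3, the log2 fold change was 0.0495 for *Axl*, and 4 targets were called higher and 1 lower. Among libraries labelled L1L2-AKO, replicate 1 was the lowest for 5 genes, and *Crim1*, *Asap1*, *Dlc1* and *Fjx1* were lowest in replicate 1 and highest in replicate 3. *Arhgef17* and *Nt5e* were highest in replicate 1 and lowest in replicate 3, with small differences in *Nt5e*. The mural markers summed to 1113 to 1462 CPM in L1L2-FF and 1188 to 1447 CPM in libraries labelled L1L2-AKO, where 3 of 10 rose, 2 fell and 5 did not pass. An unadjusted p under 0.05 gave 4 of these markers higher and 4 lower, DESeq2 3 and 4, and limma-voom 3 and 2. *Rgs5* and *Pdgfrb* were the most abundant of them (log2 fold changes -1.22 and 0.45), and the call of *Rgs5* was lost without L1L2-FF replicate 1 or L1L2-AKO replicate 2 (adjusted p up to 0.0744). The part of these cell types in the spread was not tested.

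**Figure D3:**
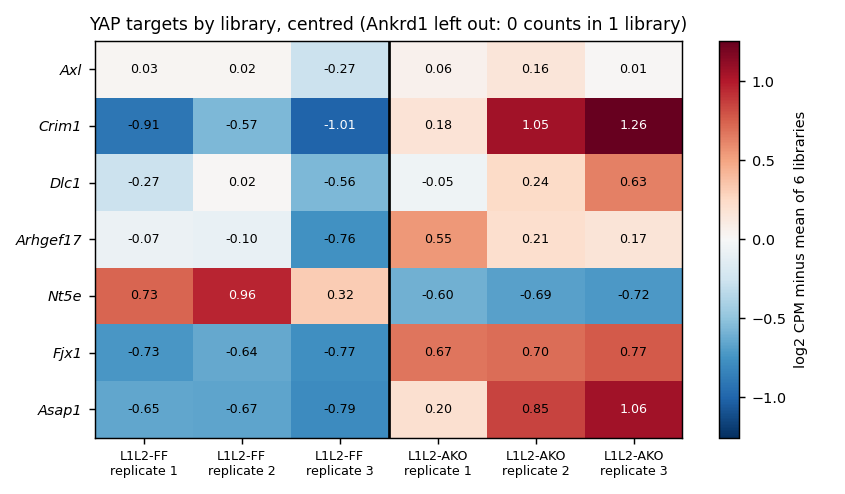
Log2 CPM of 7 targets in each of the 6 libraries (columns), minus the mean of the gene over all libraries, with red above and blue below that mean. *Fjx1* is nearly even within each genotype, *Crim1* and *Asap1* are lower in L1L2-AKO replicate 1 (0.18 and 0.20) than in replicate 3 (1.26 and 1.06), and *Nt5e* has the opposite colors. *Ankrd1* is left out because it had 0 counts in 1 library.

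Collagenase digestion is known to induce immediate-early genes. The 10 immediate-early and stress genes summed to 6116, 7117 and 4230 CPM in L1L2-FF and to 2799, 2992 and 2881 CPM in libraries labelled L1L2-AKO. Of them 6 fell and 4 did not pass, with 0 higher by edgeR, at an unadjusted p under 0.05, by DESeq2 and by limma-voom, and *Egr1* and *Fos* were the most abundant (log2 fold changes -0.95 and -0.97, the call of *Egr1* not holding in 5 of the 6 fits with a library left out). They thus moved against the 4 targets that rose and along with *Nt5e*. Schwann cell markers summed to 822 to 1682 CPM in L1L2-FF and 752 to 1385 CPM in libraries labelled L1L2-AKO. Of these 8 genes 4 were lower, 3 did not pass and 1 was higher. DESeq2 and an unadjusted p under 0.05 in edgeR each gave 7 lower and 1 higher, and limma-voom 2 and 1. Their median log2 fold change was -1.77, with 7 lower without overlap. The riser, *Pmp22*, went from 446 ± 86.6 to 902 ± 264 CPM (log2 fold change 1.02) and made up a large part of each sum. Its call was lost without L1L2-FF replicate 1 or L1L2-AKO replicate 2 or 3 (adjusted p up to 0.117). The 5 mesothelial markers summed to 4.02 to 5.16 and 4.04 to 6.42 CPM, with *Lrrn4* at a log2 fold change of -0.99 and *Msln* and *Upk3b* too low to be tested. *Wt1*, with 0 counts in every L1L2-FF library and 27, 41 and 50 counts for L1L2-AKO, passed the filter only through the group in which it was high. *Krt19* was called higher from 4, 14 and 14 against 34, 56 and 57 counts, a call lost without L1L2-FF replicate 1 or L1L2-AKO replicate 2 or 3 (adjusted p up to 0.0822). None of the marker genes had 0 counts in all 6 libraries. The part of handling and of these cell types in the levels of the targets was not tested.

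**Figure D4:**
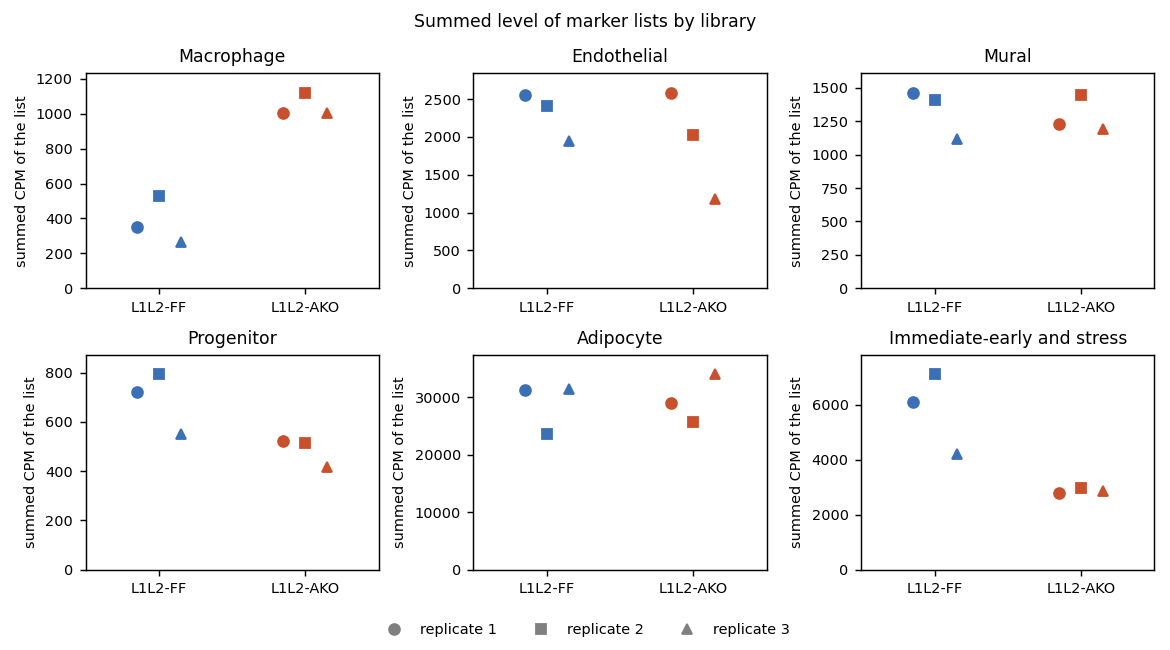
Summed CPM of 6 marker lists in each library (vertical axis, linear from 0), with replicates as circle, square and triangle. Macrophage sums are higher in all 3 libraries labelled L1L2-AKO (1001 to 1119 against 263 to 528 CPM), progenitor and immediate-early sums are lower in all 3, and the endothelial, mural and adipocyte sums overlap.

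Other genes commonly listed as YAP/TAZ targets gave a similar division into risers and genes that did not pass. Of 15 such genes, including the CCN genes *Ccn1* and *Ccn2*, 14 were tested and 7 rose, where 9.28% of all tested genes were called higher. EdgeR called 0 lower, with 0 also at an unadjusted p under 0.05, by DESeq2 and by limma-voom. The median log2 fold change was 1.05 (all tested genes -0.0195). *Igfbp3*, which encodes a binding protein of insulin-like growth factors, rose from 31.7 ± 10.1 to 470.5 ± 258 CPM (SD, n = 3 each, log2 fold change 3.89). *Myof* (myoferlin, membrane repair) had a log2 fold change of 1.65 and *Ccn2* (connective tissue growth factor) of 1.58. *Amotl2*, which binds YAP and holds it in the cytoplasm, *Tgfb2*, a TGFβ ligand, and *Rbms3*, an RNA-binding protein, rose by log2 fold changes of 1.43, 1.32 and 1.31. *Lats2*, itself a target, had 0.64. *Ccn1*, at 488 ± 87.6 and 733 ± 286 CPM, had 0.59 and did not pass (adjusted p = 0.239). *Foxf2* was too low to be tested. The number of risers in this list was 3 when L1L2-FF replicate 1 was left out, 3 when L1L2-AKO replicate 2 was, and 4 when L1L2-AKO replicate 3 was. *Ccn2* and *Tgfb2* lost the call in each of these fits, and *Amotl2* in the first and second, with adjusted p-values of at most 0.0657. *Lats2* lost it in these and without L1L2-FF replicate 3 (adjusted p of at most 0.104), and *Ccn1* passed without L1L2-AKO replicate 1 (adjusted p = 0.028). RefSeq windows were at hand for 11 of the 15 genes, and 4 of these held GGAATG (*Amotl2*, *Ccn1*, *Lats2* and *Ptpn14*).

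Of 21 genes of the Hippo pathway, from the kinases to the DNA-binding partners, 8 rose, 2 fell and 11 did not pass (median log2 fold change 0.36). Over all tested genes, 9.28% were called higher and 7.18% lower. The floxed gene *Lats2* is counted among the risers both here and in the YAP target list, and the floxed gene *Lats1* among those that fell. The coactivators themselves did not pass: *Yap1* was at 91.1 ± 8.51 and 77.1 ± 4.77 CPM (log2 fold change -0.24) and *Wwtr1* at 266 ± 28.2 and 206 ± 2.78 CPM (-0.37, adjusted p = 0.0762, and 0.0394 without L1L2-FF replicate 3 and 0.0407 with DESeq2). Of their DNA-binding partners, *Tead1* and *Tead3* rose by log2 fold changes of 1.16 and 0.97. *Vgll3*, a TEAD cofactor that competes with YAP, rose by 4.61, from 3.34 ± 1.40 to 82.1 ± 26.1 CPM. The upstream scaffolds *Wwc1* (KIBRA) and *Wwc2* rose by 4.01 and 0.64 and the kinase *Stk4* (MST1) and its partner *Sav1* by 0.61 each. *Lats1* fell by 1.04, and *Amotl1*, an angiomotin that binds YAP, fell by 0.77 on the log2 scale. Of this list 4 genes were higher without L1L2-FF replicate 1 and 5 without L1L2-FF replicate 3, L1L2-AKO replicate 2 or L1L2-AKO replicate 3, and 1 was lower without L1L2-FF replicate 1, L1L2-AKO replicate 2 or L1L2-AKO replicate 3. Of the 6 fits with a library left out, the call of *Sav1* was lost in 5 (adjusted p up to 0.131). Those of *Lats2* and *Tead3* (up to 0.0943) were lost in 4 each. The call of *Amotl1* was lost in 3 (up to 0.0644) and that of *Wwc2* in 1 (0.0702).

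Ligands, substrates and relatives of the 8 targets were looked at as a list of 27 genes, of which 25 were tested, 6 rose and 1 fell (median log2 fold change 0.28). Over all tested genes, 9.28% were called higher and 7.18% lower. The AXL ligand *Gas6* rose from 31.3 ± 11.2 to 228 ± 87.4 CPM (log2 fold change 2.86), whereas the other TAM receptors *Tyro3* and *Mertk* had log2 fold changes of 0.092 and -0.029, with signs that change when a library is left out. *Bmp4*, a ligand of the kind that CRIM1 binds, rose from 2.44 ± 0.140 to 205 ± 100.3 CPM (SD, n = 3 each, log2 fold change 6.39, adjusted p = 0.000303 in edgeR's test), with 2.30, 2.44 and 2.58 CPM in L1L2-FF and 90.6, 248 and 277 CPM in libraries labelled L1L2-AKO. *Adora1*, the adenosine receptor A1, fell by 1.14 on the log2 scale, from 54.6 ± 4.92 to 24.7 ± 4.79 CPM, in the same direction as the adenosine-forming enzyme *Nt5e*. *Entpd1* (CD39), the enzyme that supplies AMP to CD73, had a log2 fold change of 0.014. *Fat1*, a cadherin of the FAT family, rose by 0.96, *Ankrd23*, a relative of *Ankrd1*, by 1.72, and *Stard13*, a relative of *Dlc1*, by 0.59. *Asap3*, a relative of *Asap1*, rose from 5.46 ± 1.38 to 13.5 ± 3.70 CPM. *Asap2* (log2 fold change -0.45), *Rhoa* (0.0845), *Rhob* (-0.51) and *Rhoc* (0.36) did not pass. *Ankrd2* was too low to be tested, and *Dchs2* was not in the table. Between 4 and 7 genes of this list were higher when each library was left out in turn. Lower calls numbered 3 without L1L2-FF replicate 2 and 2 without L1L2-AKO replicate 1. *Stard13* lost its call without L1L2-FF replicate 1 or 3 or L1L2-AKO replicate 2 or 3 (adjusted p up to 0.0867), and *Asap3* without L1L2-FF replicate 1 or L1L2-AKO replicate 2 or 3 (up to 0.0661).

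**Figure D5:**
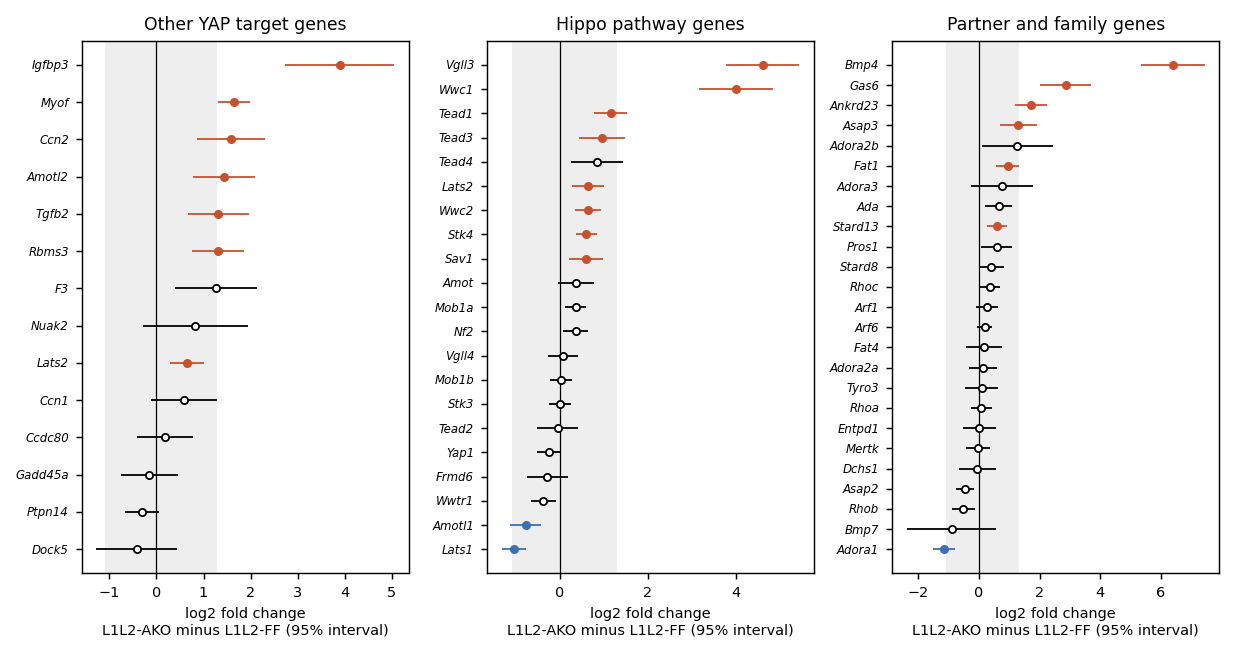
Log2 fold change (horizontal axis, unadjusted 95% intervals, a scale per panel) of other YAP targets, Hippo pathway genes, and partners and relatives of the 8 targets, filled where the adjusted p was under 0.05. The highest point of each panel is *Igfbp3* (3.89), *Vgll3* (4.61) and *Bmp4* (6.39), and the gray band holds the 5th to 95th percentile of all tested genes.

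For each target, the gene with the most similar profile over the 6 libraries was sought among tested genes with a mean log2 CPM of at least 1, by the root mean square difference of centered log2 CPM. *Dlc1* was closest to *Ssh3* (0.034 log2 units) and *Axl* to *Ctbp2* (0.038). *Asap1* was closest to *Ttc39b* (0.062), *Fjx1* to *Myo18a* (0.093), *Arhgef17* to *Rnase4* (0.10), *Crim1* to *Bicc1* (0.10) and *Nt5e* to *Abca8b* (0.11). The nearest profile to *Ankrd1* was that of *Hif3a*, at 0.33 log2 units, which is a poor match next to the others. *Bicc1* repeated the steps of *Crim1*, with 17.3, 21.9 and 13.8 CPM in L1L2-FF and 32.0, 56.9 and 70.7 CPM in libraries labelled L1L2-AKO, and *Abca8b* those of *Nt5e*, with 27.7, 30.7 and 17.6 CPM against 11.3, 10.02 and 8.62 CPM. With 6 libraries and 15674 tested genes, a close profile is a description only.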

How the data were processed

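Libraries of poly(A) RNA were read by the authors on a BGISEQ-500 in paired-end mode. After FastQC, reads were mapped on mm10 by HISAT2 2.1.0, followed by SAMtools and StringTie 1.3.5 (versions of HISAT2 and StringTie from the submitters' processing notes). What the authors deposited is a table of raw, whole-number counts for each symbol, and the gene annotation, counting program and strand setting are not given in the sources used here. Replicates are separate pools of 4 mice. The counts were filtered with filterByExpr (minimum count 10, minimum total 15), which kept 15674 of 37384 genes, scaled by TMM and tested with edgeR 4.0.16 (quasi-likelihood, two-sided, Benjamini-Hochberg adjustment, threshold 0.05) in R 4.3.3. A standard error is |log2 fold change| over the root of the F statistic. DESeq2 1.42.0 and limma 3.58.1 (voom) were alternatives, as were other scalings and filters, replicate number as a block, and each library left out in turn. Permuting 3 against 3 libraries reaches a two-sided p of 0.1 at best. All 8 members matched GENCODE M21, and at most 2.05% of the exon bases of any member were shared with another gene. The script was tested on simulated data.

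The members and gene lists were chosen with earlier results of these data known. Named were all members, the genes of the YAP target, Hippo pathway and partner lists past the threshold with *Yap1*, *Wwtr1*, *Ccn1*, *Gas6*, *Tyro3* and *Mertk*, the closest profile to each member, and, of every marker list, the 2 genes with the highest mean CPM, of which 1 gene is not reported here. Chosen after their values were seen were *Entpd1*, *Asap2*, *Rhoa*, *Rhob* and *Rhoc*, the other markers named, and the genes named as too low to be tested or not in the table.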

Additional observations from a re-analysis of the deposited data

How the results depend on the processing

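Of 111 values of the 8 targets under the alternatives, 109 kept their direction and their side of the threshold and 0 reversed. The other 2 were those of *Arhgef17*, which passed with DESeq2 (adjusted p = 0.0385) and with the replicate number as a block (adjusted p = 0.0361). The number of targets called higher was 3 to 5 over the other normalizations, tests and filters, 3 with at least 10 counts in every library, which leaves out *Ankrd1*, and 4 in each fit without a library, and 1 was called lower throughout.

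With each library left out, the other YAP targets called higher ranged from 3 to 9 (7 with all libraries), Hippo pathway genes from 4 to 8 higher and 1 to 3 lower (8 and 2), partner and family genes from 4 to 7 higher and 1 to 3 lower (6 and 1), and all genes past the threshold from 1281 to 2845 (2580), namely 1290 when L1L2-FF replicate 1 was left out, 1281 when L1L2-AKO replicate 2 was and 1374 when L1L2-AKO replicate 3 was. The number of partner and family genes called lower was also 3 with upper-quartile factors and 3 with DESeq2. The total was 3374 with DESeq2. The cause was not tested. Without 1 library, log2 fold changes spanned -0.088 to 0.24 for *Tyro3*, -0.18 to 0.11 for *Mertk*, -0.038 to 0.75 for *Cd79a* and -0.15 to 0.42 for *Ms4a1*, with the sign turned for *Tyro3* without L1L2-FF replicate 2 or L1L2-AKO replicate 1, for *Mertk* without L1L2-FF replicate 2 or L1L2-AKO replicate 2, for *Cd79a* without L1L2-AKO replicate 2 and for *Ms4a1* without L1L2-FF replicate 3 or L1L2-AKO replicate 2.

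Deviations of same-numbered libraries from their group means correlated at 0.19, 0.26 and -0.054 across genes. Pairs of unlike number correlated at -0.32 to 0.21. With 3 libraries per genotype, these values cannot tell whether replicate numbers mark pairs. With the replicate block 2514 genes passed, 5 targets higher and 1 lower. At these depths *Ankrd1*, with 2 counts in all L1L2-FF libraries, has a fold change known only within its counting interval.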
